A study of Mus musculus with 2 samples.

Results

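The genes described here are 44 genes of the sarcomere and the Z-disc, which were chosen by name. Most belong to the thin filament, the thick filament, the M-band and the Z-disc of striated muscle. Also among them are 6 genes of intercalated disc, intermediate filament and stress proteins, and the smooth muscle actin Acta2. The whole set is 44 of 55413 genes of the GENCODE M21 annotation on the mouse build mm10, of which 21938 are protein-coding. The rule names the genes and uses no measured value, although they were chosen with earlier results of these data known. For each gene, the peaks of the histone chaperone HIRA that lay in the gene body or within 5 kb of it were taken, together with the distance from the gene body to the nearest peak.

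The study asked where HIRA sits on chromatin in the developing heart. Hearts of wild type CD1 mouse embryos were collected at E12.5, and 30 hearts from 2 plugged mice were pooled. Their chromatin was fixed with EGS followed by formaldehyde, and HIRA was precipitated with the antibody WC15. The design held 1 ChIP library and 1 input library of this pool, so there were no replicates and no second genotype, stage or treatment, and no test between conditions was possible. The only values are the positions of 6624 peaks without height or p-value, the sequencing depth is unknown, and no RNA values were analysed here, so the heart label could not be checked against marker genes. All confidence intervals below are exact 95% intervals, and they cover counting error only.

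The sarcomere is the contractile unit of striated muscle. Thin filaments of actin and tropomyosin are anchored at the Z-disc and slide along thick filaments of myosin, which are held together at the M-band, while titin spans from the Z-disc to the M-band. HIRA is a chaperone of the histone variant H3.3, which is known from the bodies and the regulatory elements of active genes.

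Of the 44 genes, 15 had a HIRA peak in the body or within 5 kb (34.1%, interval 20.5 to 49.9%). These were Ttn, Nebl, Tpm1, Tpm3, Tmod1, Lmod3, Myl4, Myl7, Mylk3, Mybpc1, Myom1, Actn3, Ldb3, Synpo2 and Sorbs2. Of all protein-coding genes 11.1% had such a peak, and of all annotated genes 6.99%. In 13 genes the peak lay in the gene body (29.5%, interval 16.8 to 45.2%), against 8.9% of protein-coding genes, and in Myl7 and Myom1 it lay only in the flanking sequence. The remaining 29 genes had no peak within 5 kb. The 15 genes carried 20 peaks, and no peak was counted for more than 1 of them.

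The sequences of the peaks are shown first, for those genes whose peaks the results turn on. Each is the plus strand of mm10, 5′ to 3′. Capitals mark matches to motifs that were searched on both strands. These were the GA repeat (GAGAGAGA), the CA repeat (CACACACA), and motifs of factors that act on heart and muscle genes. The GATA factors were searched by the letters AGATAA, the factor NKX2-5 by the letters TNAAGTG, and the MCAT element by the letters CATTCC. The TBX factors were searched by the letters AGGTGT and the muscle E-box by the letters CAGCTG, and MEF2 and CArG were searched by their usual consensus. Matches to the GA and CA repeats overlap themselves along a repeat, and no match in these peaks overlapped a match to another motif. A match describes the letters and is not a binding site.

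The first set is the 3 peaks beyond the 3′ end of Myl7, which encodes the atrial regulatory myosin light chain. They are shown because no other gene of the 44 had as many.
Myl7, chr11:5891476-5891684, MCAT and E-box in capitals: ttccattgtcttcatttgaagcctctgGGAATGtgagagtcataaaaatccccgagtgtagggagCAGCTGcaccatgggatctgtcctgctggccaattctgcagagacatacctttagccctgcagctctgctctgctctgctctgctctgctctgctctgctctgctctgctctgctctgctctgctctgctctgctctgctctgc
Myl7, chr11:5893097-5893392, GATA and CArG in capitals: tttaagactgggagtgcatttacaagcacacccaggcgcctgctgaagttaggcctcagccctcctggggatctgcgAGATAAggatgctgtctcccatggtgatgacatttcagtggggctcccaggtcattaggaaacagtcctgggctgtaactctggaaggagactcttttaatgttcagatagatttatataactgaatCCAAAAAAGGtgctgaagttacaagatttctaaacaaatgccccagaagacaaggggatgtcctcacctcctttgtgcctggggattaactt
Myl7, chr11:5894235-5894406, MCAT in capitals: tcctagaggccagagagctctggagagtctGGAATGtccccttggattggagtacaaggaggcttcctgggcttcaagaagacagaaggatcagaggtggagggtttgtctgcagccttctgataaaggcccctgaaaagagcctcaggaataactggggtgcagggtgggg

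The second set is 4 peaks inside gene bodies that were largely free of repeats. Myl4 encodes the atrial essential light chain, Mylk3 the cardiac myosin light chain kinase, Ldb3 a Z-disc protein with a PDZ domain that binds alpha-actinin, and Ttn the giant protein titin. Of the Mylk3 peak the central 300 bases are shown.
Myl4, chr11:104578209-104578394, E-box, MCAT and NKX2-5 in capitals: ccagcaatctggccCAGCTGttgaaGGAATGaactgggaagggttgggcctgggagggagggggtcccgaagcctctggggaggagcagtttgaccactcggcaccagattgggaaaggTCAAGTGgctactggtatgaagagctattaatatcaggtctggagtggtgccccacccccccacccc
Mylk3, chr8:85381066-85381365, GATA in capitals on the minus strand: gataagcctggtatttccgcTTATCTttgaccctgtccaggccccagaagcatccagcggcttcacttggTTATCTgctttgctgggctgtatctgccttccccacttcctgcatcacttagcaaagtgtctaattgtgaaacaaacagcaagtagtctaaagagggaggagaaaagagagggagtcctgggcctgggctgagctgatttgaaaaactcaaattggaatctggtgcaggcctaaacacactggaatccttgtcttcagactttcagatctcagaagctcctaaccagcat
Ldb3, chr14:34565692-34565981, E-box in capitals: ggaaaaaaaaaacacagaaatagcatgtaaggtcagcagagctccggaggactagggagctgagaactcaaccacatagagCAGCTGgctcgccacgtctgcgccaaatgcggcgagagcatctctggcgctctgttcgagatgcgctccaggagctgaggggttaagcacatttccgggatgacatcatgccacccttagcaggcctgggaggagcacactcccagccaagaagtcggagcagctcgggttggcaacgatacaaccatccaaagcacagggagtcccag
Ttn, chr2:76808035-76808212, TBX, GATA and MCAT in capitals: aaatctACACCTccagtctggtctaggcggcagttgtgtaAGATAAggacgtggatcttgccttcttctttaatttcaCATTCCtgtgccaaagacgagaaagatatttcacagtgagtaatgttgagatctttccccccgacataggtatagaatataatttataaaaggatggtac

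The third set shows peaks with repeated sequence. The peak in Nebl, the gene of the cardiac nebulin relative nebulette, was soft-masked throughout, which means that the assembly marks it as a repeat. The peaks in Actn3, an alpha-actinin, and in Mybpc1, a myosin-binding protein C, hold GA repeats. The peak in Lmod3, a leiomodin of the thin filament end, holds a CA repeat.
Nebl, chr2:17352668-17352854, MCAT in capitals: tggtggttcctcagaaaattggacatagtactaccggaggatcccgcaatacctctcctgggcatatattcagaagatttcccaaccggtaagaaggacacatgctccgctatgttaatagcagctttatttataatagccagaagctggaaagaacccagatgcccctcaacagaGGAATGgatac
Actn3, chr19:4868345-4868533, GA repeat in capitals: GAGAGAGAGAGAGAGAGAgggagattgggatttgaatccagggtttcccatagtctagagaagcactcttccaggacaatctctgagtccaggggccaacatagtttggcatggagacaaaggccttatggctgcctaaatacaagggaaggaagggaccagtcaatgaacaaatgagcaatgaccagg
Mybpc1, chr10:88548239-88548454, GA repeat in capitals: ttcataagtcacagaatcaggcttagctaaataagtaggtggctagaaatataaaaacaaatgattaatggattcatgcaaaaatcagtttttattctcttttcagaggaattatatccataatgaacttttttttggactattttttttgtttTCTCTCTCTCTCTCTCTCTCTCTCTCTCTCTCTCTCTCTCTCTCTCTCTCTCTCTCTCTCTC
Lmod3, chr6:97244487-97244679, CA repeat in capitals: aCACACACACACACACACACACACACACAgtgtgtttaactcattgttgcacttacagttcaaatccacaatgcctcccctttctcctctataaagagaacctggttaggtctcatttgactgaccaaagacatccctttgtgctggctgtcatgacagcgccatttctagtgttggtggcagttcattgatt

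Longer genes have more room for a peak, and the sarcomere genes are long. Their median length was 28.1 kb against 17.4 kb for protein-coding genes. The 15 genes with a peak had a median length of 62.1 kb and the 29 genes without had 21.1 kb. The genes were therefore set beside protein-coding genes of the same length class.

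Of the 11 genes under 10 kb, only Myl7 had a peak (9.09%, interval 0.230 to 41.3%), against 3.74% of protein-coding genes of this length. Of the 14 genes of 10 to 30 kb, Actn3, Lmod3, Tpm1 and Tpm3 had one (28.6%, interval 8.39 to 58.1%), against 6.17%. Of the 12 genes of 30 to 100 kb, Ldb3, Mybpc1, Myl4, Mylk3 and Tmod1 had one (41.7%, interval 15.2 to 72.3%), against 13.3%. Of the 7 genes of 100 kb or more, Ttn, Nebl, Sorbs2, Synpo2 and Myom1 had one (71.4%, interval 29.0 to 96.3%), against 42.4%. The share was above that of protein-coding genes in each of the 4 length classes. The interval left out the share of protein-coding genes in the middle classes and held it in the shortest and the longest class.

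**Figure D1:**
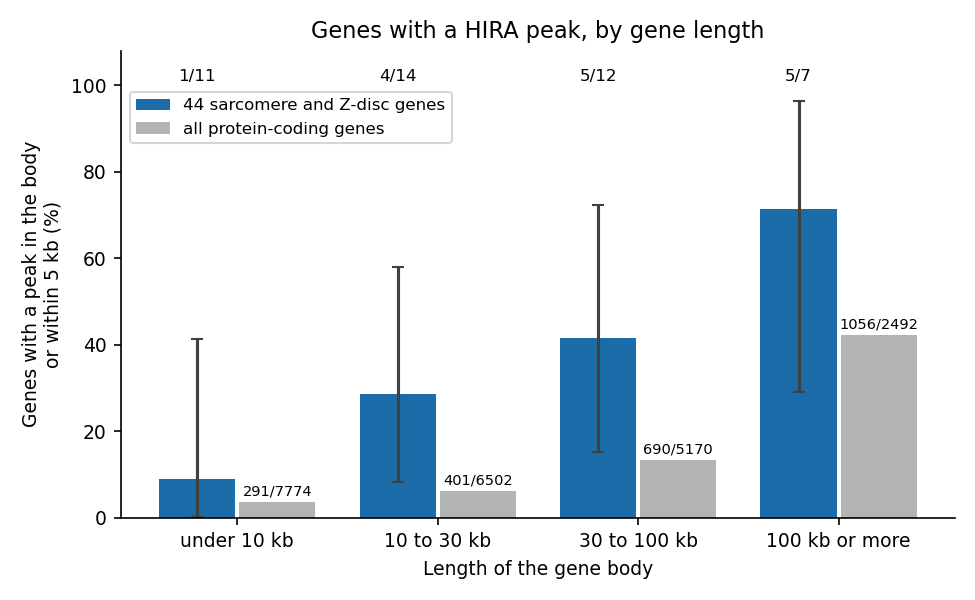
The bars give the percentage of genes with a HIRA peak in the body or within 5 kb, by length of the gene body, for the 44 sarcomere and Z-disc genes (blue, with exact 95% intervals of counting error) and for all protein-coding genes (grey). The blue bar is the higher in each class, from 9.09% against 3.74% under 10 kb to 71.4% against 42.4% at 100 kb or more, and the numbers above the bars are genes with a peak over all genes.

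The same comparison was made gene by gene. For each of the 44 genes, the share with a peak was taken among the 200 protein-coding genes nearest to it in length, and these shares summed to 6.26 genes (14.2%). The observed 15 genes were 2.40 times this number (interval 1.44 to 3.51). For Nebl, the longest of the 44 genes at 388 kb, 60.0% of genes of like length had a peak, and for Ttn (279 kb) 46.5% did. For Myl7 (2.15 kb) the share was 4.00%, for Tpm1 (26.8 kb) 4.50% and for Lmod3 (14.2 kb) 4.50%. A peak was thus common among genes as long as Ttn and Nebl, and rare among genes as short as Myl7, Tpm1 and Lmod3.

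Peaks per length of sequence gave the same order. The gene bodies with 5 kb on each side covered 3.25 Mb and held 6.14 peaks per Mb (interval 3.75 to 9.49). The windows of protein-coding genes held 2.45 peaks per Mb, and the ratio was 2.51 (interval 1.53 to 3.88). The 20 peaks are not independent of each other, since 3 of them lie side by side at Myl7.

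The distance to the nearest peak ranged from 0 kb in the 13 genes with a peak in the body to 638 kb at Myl1. The median was 42.6 kb (interval 5.50 to 98.8 kb), against 116 kb for protein-coding genes. Of the 44 genes, 22 had a peak within 50 kb, of which 7 lay between 5 and 50 kb. A further 7 genes were at 50 to 100 kb, and 15 were farther than 100 kb, of which 9 were farther than 200 kb. The genes thus fell between the 13 with a peak inside and the 9 beyond 200 kb.

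**Figure D2:**
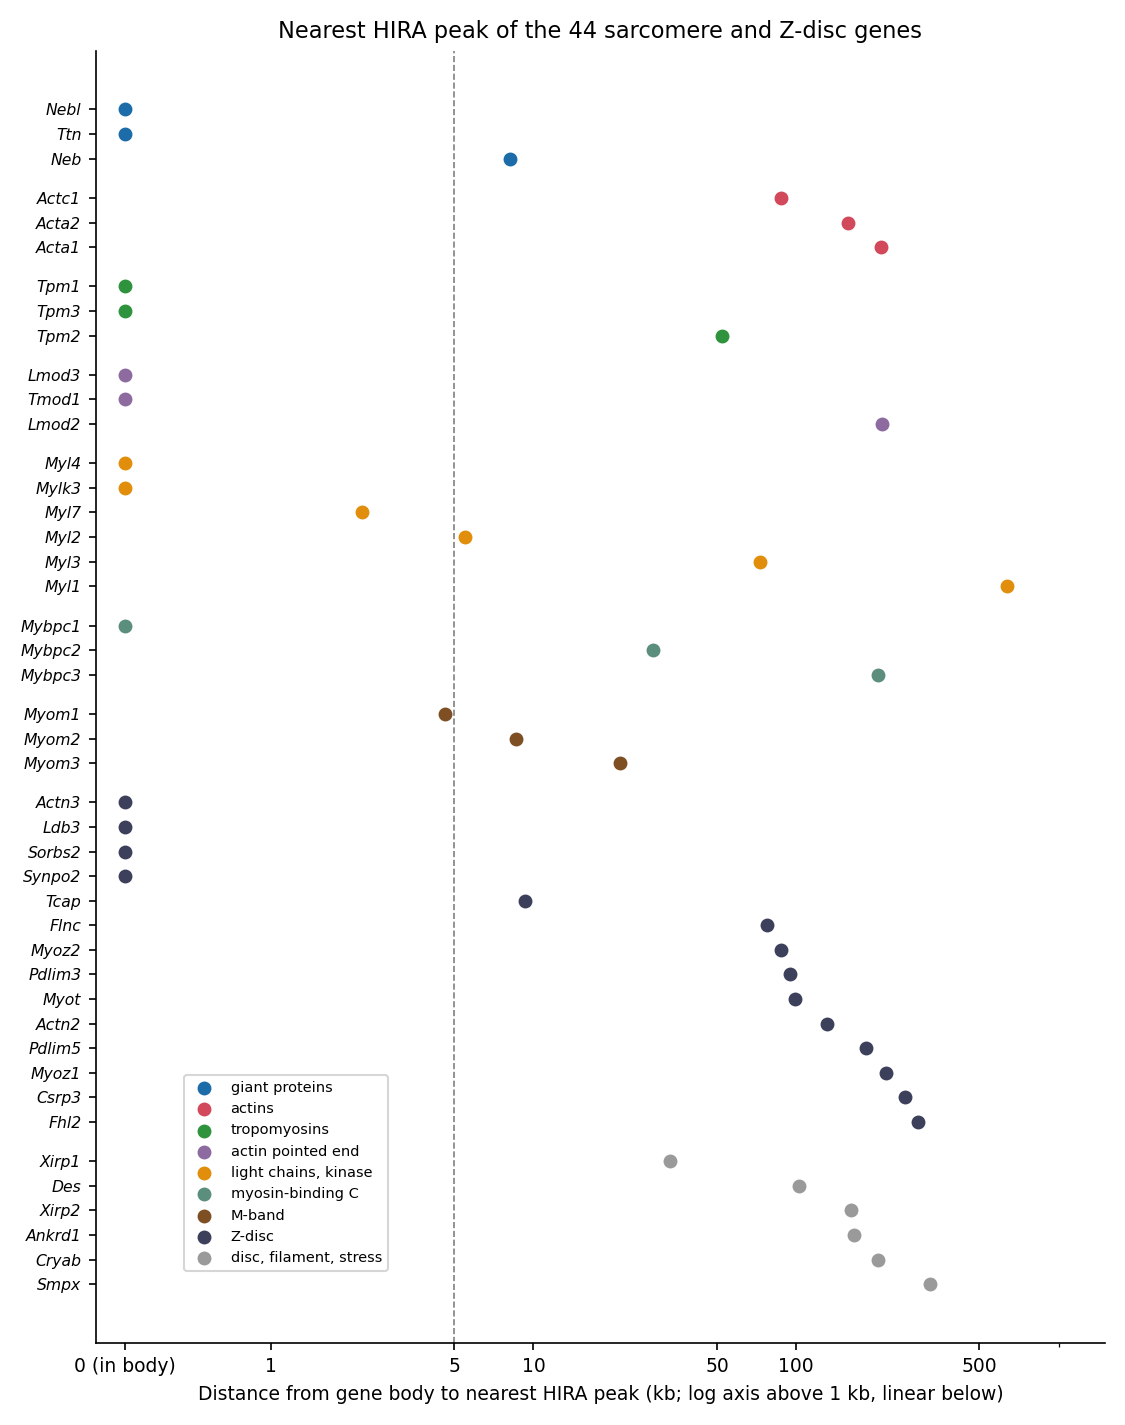
Each point is 1 of the 44 genes, and the colours give the functional group. The group labelled giant proteins holds Ttn, Neb and also Nebl, whose protein nebulette is a small relative of nebulin. The horizontal axis gives the distance from the gene body to the nearest HIRA peak in kb, linear below 1 kb and logarithmic above. The 13 points at 0 have a peak in the body, the dashed line marks 5 kb with Myl7 and Myom1 to its left and Myl2 just to its right, and the actins and the group of disc, filament and stress proteins lie wholly to the right.

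Among the 3 genes of titin, nebulin and the smaller nebulette, Ttn and Nebl had 1 peak each in the body. Titin is a molecular spring that runs from the Z-disc to the M-band. Its gene (ENSMUSG00000051747.14, chr2:76703980-76982547, minus strand) held a peak of 178 bases at 62.6% of the body from the 5′ end. The midpoint of this peak lay in intron 221 of 346, and 83 of its bases were coding sequence of exon 222 of 347. It held no multi-copy word, that is, no stretch of 32 bases that occurs again elsewhere in the genome, and 12.4% of it was soft-masked. Nebulette, a small relative of nebulin, links actin to the Z-disc in the heart. Its gene (ENSMUSG00000053702.16, chr2:17343909-17731464, minus strand) held a peak in intron 26 of 27, at 97.7% of the body, of which 71.2% of the 32-base words were multi-copy. Neb, the gene of nebulin, which lies along the thin filament of skeletal muscle, had none within 5 kb, and its nearest peak was 8.14 kb upstream. Of these 2 peaks, the one without multi-copy words was that in Ttn.

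None of the 3 actin genes had a peak within 5 kb. Actc1, the cardiac actin, was 87.9 kb from the nearest peak. Acta2, the smooth muscle actin, was 157 kb away, and Acta1, the skeletal actin, was 211 kb away.

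Among the tropomyosins, which lie along the actin filament and control the access of myosin, Tpm1 and Tpm3 had peaks and Tpm2 had none nearer than 52.1 kb. Tpm1 (ENSMUSG00000032366.15, chr9:67022590-67049406, minus strand) had 1 peak in the body. Tpm3 (ENSMUSG00000027940.18, chr3:90072649-90100902, plus strand) had 2 peaks. The first (chr3:90080511-90080669) held no soft-masked base and lay 148 bases from the start of an alternative Tpm3 transcript, with 107 bases in its 5′ exon outside the coding sequence. The second (chr3:90105464-90105675) lay 4.56 kb past the 3′ end of Tpm3, inside the neighbouring gene Nup210l, and held a GA repeat.

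Tropomodulins and leiomodins act at the pointed end of the actin filament, where they limit or support its growth. Tmod1 (ENSMUSG00000028328.13, chr4:46038935-46116032, plus strand) had a peak in intron 2 of 9 with matches to the GA repeat, NKX2-5 and MCAT. Lmod3 (ENSMUSG00000044086.8, chr6:97238534-97252759, minus strand) had a peak in intron 2 of 2, which held the CA repeat shown above. Lmod2, the leiomodin best known from heart, was 213 kb from the nearest peak.

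The myosin light chain genes with their kinase carried 6 of the 20 peaks. Light chains stiffen the lever arm of myosin, and the kinase Mylk3 phosphorylates the regulatory light chain in heart muscle. Of the 6 genes, Myl4, Myl7 and Mylk3 had a peak, Myl2 lay just outside the window, and Myl3 and Myl1 were 72.7 kb and 638 kb from the nearest peak.

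Myl7 (ENSMUSG00000020469.8, chr11:5896637-5898782, minus strand) is 2.15 kb long and had no peak in the body. Its 3 peaks lay 2.23, 3.25 and 4.95 kb past its 3′ end, with midpoints 1076 and 1664 bases apart, and no other gene lay within 5 kb of them. The middle peak was 296 bases wide and 2.70% soft-masked, and the nearest was 172 bases wide and 12.2% soft-masked. The farthest was 209 bases wide, 41.1% soft-masked, and lay just inside the limit of the window. Of all protein-coding genes 141 (0.643%) had 3 or more peaks within the same window, and of the 7774 that are under 10 kb long 19 did. These were the only peaks of the 20 with another peak within 10 kb, a share of 15.0% against 8.02% of all peaks. Each of the 3 counts only through the others, so they are 1 cluster and no interval is given.

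Myl4 (ENSMUSG00000061086.12, chr11:104550663-104595753, plus strand) had 2 peaks. The first lay in intron 2 of 7, 1.02 kb from a transcript start, was 21.5% soft-masked and held the E-box, MCAT and NKX2-5 matches shown above. The second (chr11:104595360-104595546) held no soft-masked base and had 183 of its 187 bases in a 3′ exon, outside the coding sequence. It is part of Myl4 only in the GENCODE annotation, since the RefSeq gene ends more than 5 kb before it.

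Mylk3 (ENSMUSG00000031698.14, chr8:85324303-85386345, minus strand) had the widest of the 20 peaks. At 336 bases it ranked 264 of 6624 by width. It lay 5.13 kb inside the gene from its 5′ end, but outside the transcript with the longest coding sequence. Its midpoint was 181 bases from the start of a retained-intron transcript. The peak shared 244 bases with a RefSeq promoter window of Mylk3 (chr8:85380992-85381291). Promoter windows were at hand for 35 of the 44 genes, and this was the only one of them that any of the 20 peaks overlapped. The peak was 8.63% soft-masked, held no multi-copy word and had 2 GATA matches.

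Myl2, the regulatory light chain of the ventricle, is the gene nearest to the limit from outside. Its nearest peak lay 5.50 kb upstream of the GENCODE gene (ENSMUSG00000013936.12, chr5:122100951-122113472, plus strand). In RefSeq the gene starts at position 122092724 and this peak lies in its body.

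**Figure D3:**
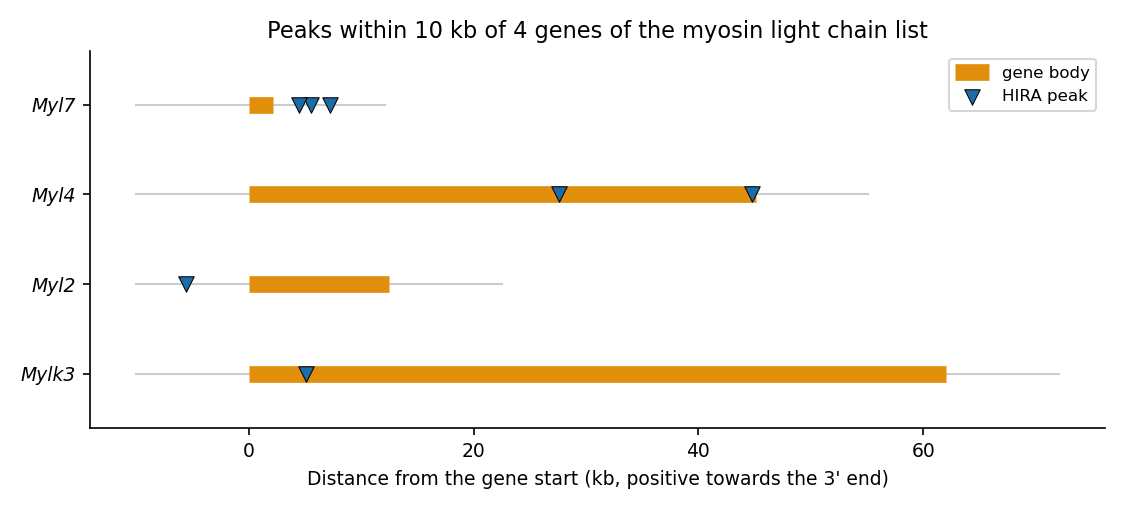
The map shows the HIRA peaks (triangles) within 10 kb of Myl7, Myl4, Myl2 and Mylk3, with the gene bodies as bars and the distance from the gene start in kb on the horizontal axis. Myl7 has 3 peaks past its 3′ end, Myl4 has 2 in the body of which 1 is at the 3′ end, Myl2 has 1 upstream, and Mylk3 has 1 at 5.13 kb from its start.

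Of the 3 genes of myosin-binding protein C, which braces the thick filament, only Mybpc1 had a peak. Mybpc1 (ENSMUSG00000020061.17, chr10:88518279-88605152, minus strand) is the slow skeletal form, and its peak lay in intron 15 of 28 with a long GA repeat. Mybpc2, the fast skeletal form, was 28.5 kb from the nearest peak, and Mybpc3, the cardiac form, was 205 kb away.

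Myomesins cross-link myosin at the M-band. The peak of Myom1 (ENSMUSG00000024049.15, chr17:71002633-71126856, plus strand) was the only one upstream of a gene among the 20. It lay 4.59 kb before the gene, just inside the window, and its midpoint was 49 bases from the start of Myl12a, the gene of a nonmuscle myosin light chain. Of its 159 bases 140 lay in exons of other genes, so that the peak belongs to Myom1 by distance alone. Myom2 and Myom3 had no peak within 5 kb, at 8.56 and 21.4 kb.

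Of the 14 genes of the Z-disc, where actin filaments are cross-linked by alpha-actinin, 4 had a peak. Actn3 (ENSMUSG00000006457.4, chr19:4861216-4877909, minus strand), the fast skeletal alpha-actinin, had a peak in intron 9 of 20 with a GA repeat. Actn2, the alpha-actinin of the heart, was 131 kb from the nearest peak. Ldb3 (ENSMUSG00000021798.14, chr14:34526603-34588682, minus strand) had a peak of 290 bases in intron 7 of 13, which was 8.62% soft-masked and held no multi-copy word. Sorbs2 (ENSMUSG00000031626.17, chr8:45507788-45827906, plus strand), an adaptor with SH3 domains, had a peak in intron 14 of 23 that overlapped the antisense gene Sorbs2os and held a GA repeat. Synpo2 (ENSMUSG00000050315.14, chr3:123076519-123236149, minus strand), an actin-bundling protein, had 2 peaks, both in intron 1 of 4. The one at chr3:123123001-123123200 held a GA repeat and was 60.0% soft-masked, and the one at chr3:123187326-123187509 held none of the motifs and was 22.3% soft-masked.

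The other 10 Z-disc genes had no peak within 5 kb. Tcap, the titin cap, was 9.28 kb from the nearest peak. The remaining 9 were between 77.3 and 292 kb away, with Myoz1, a calsarcin that binds calcineurin, at 221 kb, Csrp3, the muscle LIM protein, at 260 kb, and Fhl2, a LIM-domain protein of the I-band, at 292 kb. Nearest peaks were shared by neighbours. The Sorbs2 peak was also the nearest to Pdlim3 (94.6 kb), and a Synpo2 peak was also the nearest to Myoz2 (88.0 kb).

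None of the 6 genes of intercalated disc, intermediate filament and stress proteins had a peak within 5 kb. Xirp1, an actin-binding protein of the intercalated disc, was nearest to a peak at 33.1 kb, and Smpx, a small stress-responsive muscle protein, was farthest at 325 kb. The median of this group, which also holds desmin and the small heat shock protein Cryab, was 164 kb.

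**Figure D4:**
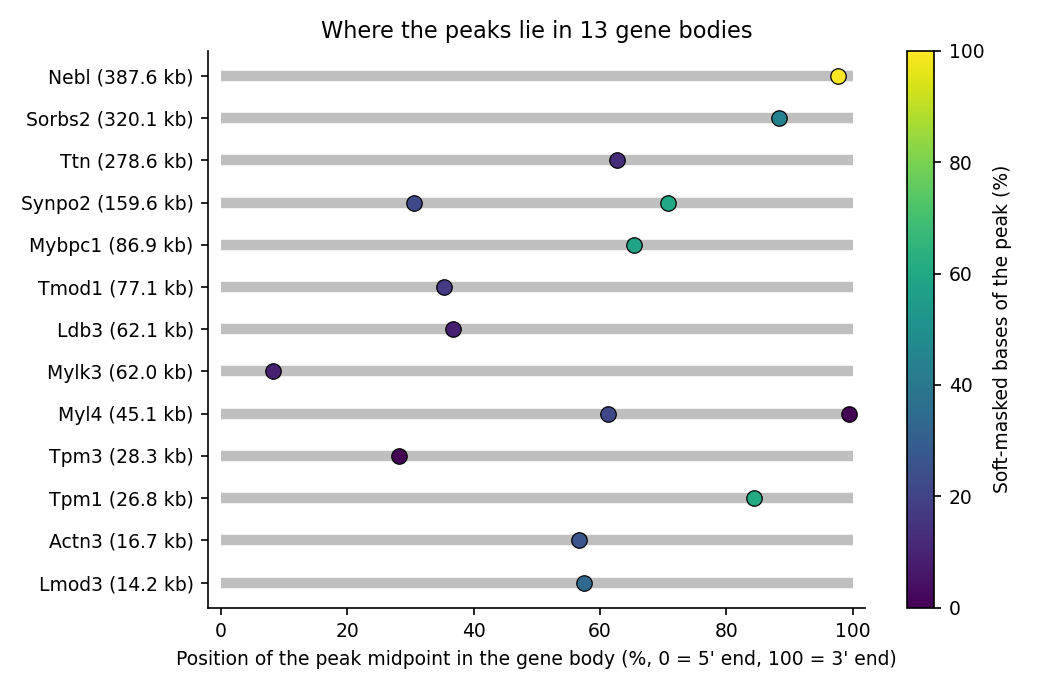
Each grey bar is the body of 1 of the 13 genes with a peak inside, scaled to 100% from the 5′ to the 3′ end, with the points at the midpoints of the peaks and the colour giving the percentage of soft-masked bases. The points spread from 8.27% (Mylk3) to 99.3% (Myl4), and the peak of Nebl is the only one that is soft-masked throughout.

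Most of the peaks had their midpoint more than 1 kb from any transcript start. By midpoint 13 of the 20 lay in introns, 1 in an exon and 3 outside genes. The other 3 lay within 1 kb of a transcript start (15.0%, interval 3.21 to 37.9%). This compares with 13.8% of the 2845 peaks at protein-coding genes and 7.55% of all peaks, and the interval held both. The 3 were the peak of Tpm3 at an alternative transcript, that of Mylk3, and that of Myom1, which is at the start of Myl12a.

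As a set, though not in each case, the 20 peaks held less soft-masked and multi-copy sequence than all peaks. The GA repeat was not rarer in them, at 30.0% against 16.0% of all peaks. The median soft-masked share was 21.9% over the 20 peaks, against 53.4% over peaks at protein-coding genes and 82.2% over all peaks. Of the 20 peaks, 15 were under 50% soft-masked (75.0%, interval 50.9 to 91.3%), against 47.1% at protein-coding genes and 35.3% of all. The exceptions were the peaks in Nebl, Tpm1 and Mybpc1, the downstream peak of Tpm3 and one in Synpo2. No multi-copy word was found in 12 of the 20 (60.0%, interval 36.1 to 80.9%), against 21.8% at protein-coding genes and 14.6% of all. In none of the 20 was every word multi-copy, which a count of 0 allows up to 16.8%, while this held for 32.2% of all peaks.

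**Figure D5:**
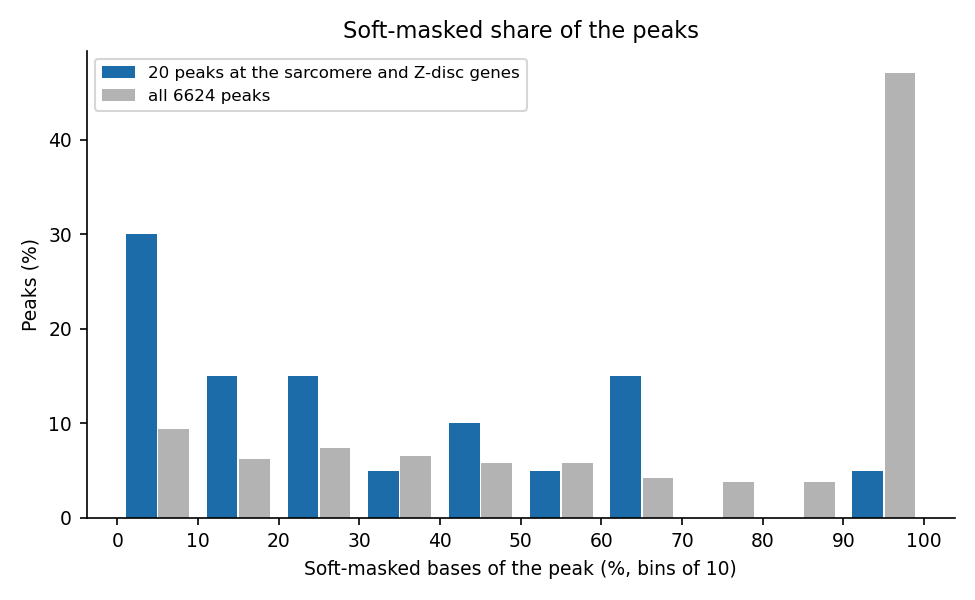
The bars give the percentage of peaks in each bin of 10 percentage points of soft-masked bases, for the 20 peaks at the sarcomere and Z-disc genes (blue) and for all 6624 peaks (grey). The blue bars lie mostly below 50%, where 15 of 20 peaks are, and the tallest grey bar is the rightmost, next to full masking.

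The 20 peaks had a median width of 192 bases, from 159 to 336, against 185 for all peaks. Of the 20, 15 were wider than the median of all peaks (75.0%, interval 50.9 to 91.3%), against 48.8% of all. Among peaks under 50% soft-masked, 10 of 15 were wider than it (66.7%, interval 38.4 to 88.2%). This interval held the 49.6% of all peaks under 50% soft-masked. The list has no peak height, and width is the only measure by which peaks could be ranked. Median GC content was 46.2% against 45.6%.

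Motifs were counted by peak. The MCAT letters were in 7 of 20 peaks (35.0%, interval 15.4 to 59.2%), against 8.68% of peaks at protein-coding genes and 9.16% of all. These were 2 peaks of Myl7 and those of Ttn, Nebl, Tmod1, the first of Myl4 and the first of Tpm3. The GATA letters were in 4 of 20, at Ttn, Myl7, Mylk3 and Myom1 (20.0%, interval 5.73 to 43.7%), against 9.36% of all peaks. NKX2-5 letters were in 3, at Myl4, Tmod1 and Myom1 (15.0%, interval 3.21 to 37.9%), against 7.22%, and E-boxes were in 3, at Myl4, Myl7 and Ldb3, against 6.05%. CArG, TBX and the CA repeat were each in 1 peak, of Myl7, Ttn and Lmod3. A MEF2 match was also in 1 of the 20 peaks (interval 0.127 to 24.9%). The share of all peaks was 0.226% for MEF2, 0.679% for CArG, 7.73% for TBX and 13.4% for the CA repeat. The interval left out the share of all peaks for MCAT alone, and held it for every other motif searched. These intervals make no allowance for the search of several motifs. They also treat peaks as independent, while 2 of the 7 MCAT peaks are neighbours at Myl7. The MCAT match in Nebl lies in a peak that was soft-masked throughout.

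The GA repeat was in 6 peaks, at Actn3, Tpm3, Mybpc1, Tmod1, Sorbs2 and Synpo2 (30.0%, interval 11.9 to 54.3%), against 16.0% of all peaks. In Actn3, Lmod3, Mybpc1, Sorbs2 and Tmod1 the only peak held a GA or CA repeat, which in Tmod1 was 1 match of 8 bases. Without peaks that held either repeat, 10 of the 44 genes had a peak within 5 kb (22.7%), against 8.11% of protein-coding genes. In Nebl, Mybpc1 and Tpm1 the only peak was 50% soft-masked or more, and without such peaks 12 genes remained (27.3%), against 5.92%. How reads from repeated sequence were placed is not stated, and its part in these peaks was not tested.

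A list of 40 further genes, of troponins, myosin heavy chains and associated proteins, held 6 with a peak within 5 kb (15.0%, interval 5.71 to 29.8%), with a median distance of 97.5 kb. These genes are shorter, with 12 under 10 kb, of which 2 had a peak, and only 2 of 100 kb or more, of which 1 had a peak. Genes of like length would give 3.09 genes with a peak, and the observed 6 were 1.94 times this number (interval 0.740 to 3.87), an interval that overlapped that of the 44 genes (1.44 to 3.51). Of the 8 troponins only Tnnc1, the calcium sensor of the heart, had a peak within 5 kb, at 3.27 kb. Tnni2 and Tnnt3, the fast skeletal forms, were 14.8 and 39.0 kb from their nearest peak, which was the same for both. The paper describes a shared enhancer of these genes to which HIRA binds. Tnnc2, Tnni1 and Tnnt1 were 83.3, 112 and 115 kb from the nearest peak. Tnnt2 and Tnni3, the cardiac forms, were 169 and 128 kb from it. Of the 9 myosin heavy chains Myh6 had 1 peak and Myh7 had 2 within 5 kb, and their nearest peak was the same. Of the 23 associated genes Tmod4 had 1 peak, and Unc45b and Smyd1 had 2 each. The difference between the 2 lists was not tested, since both were chosen by hand.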

How the data were processed

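The 44 genes, the gene lists and the motifs were chosen with earlier results of these data known. According to the methods of the study and the file headers, Bowtie2 was used by the authors for alignment to mm10, reads that were duplicates or of poor quality were dropped, and MACS, run in Strand NGS, set the ChIP library against the input. The header states a p-value cutoff of 0.0010 and enrichment factor limits of 5 and 50, the methods state a stricter cutoff, and which was used is not known. The deposited list holds peak positions and no score or other measure of signal, so each peak counted once.

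Positions were converted to count from 1 and compared with the GRCm38.p6 sequence and with GENCODE M21 on the 21 placed chromosomes. An overlap of 1 base between a peak and the gene, or its flank of 5 kb, was enough for the gene to count. Intron numbers refer to the transcript with the longest coding sequence. A midpoint within 1 kb of any transcript start was called promoter before exon, intron or intergenic. All words of 32 bases in the peaks were searched in the genome in both orientations. All 44 genes matched RefSeq by symbol, and 35 had a promoter window in the RefSeq table (GRCm38.p6). Intervals are exact binomial for shares, exact Poisson for density, and from order statistics for medians. Sequences are shown for 11 of the 20 peaks, and 1 further sequence with its place in the gene is not reported here. Named are all genes with a peak within 5 kb, all with one within 50 kb, and the 5 farthest, others by group. The genes Actc1, Acta1, Acta2, Actn2, Tpm2, Lmod2, Myl3, Mybpc3, Pdlim3, Myoz2, Des and Cryab were named after their values were seen, as were those of the second list. The scripts ran in python 3.11.15 with numpy 2.4.6 and scipy 1.17.1. Of their steps, the search for overlapping and nearest peaks was tested on simulated data.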

Additional observations from a re-analysis of the deposited data

How the results depend on the processing

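No paired analysis was possible because there was 1 ChIP library and 1 input library and no result came from a test. Of 39 values recomputed under other windows, annotations, peak lists and counts of genes of like length, 36 stayed within the intervals of the main values or within 1.5 times of the counts. Without peaks holding a GA or CA repeat, genes with a peak in the body went from 13 to 8 and the median distance to 112 kb. With peaks under 50% soft-masked alone the median distance was 115 kb. Protein-coding genes moved too, to 165 and 312 kb, and the 44 genes stayed below them. With RefSeq genes 15 of the 44 had a peak within 5 kb, with Myl2 in and Myom1 out. With the 3233 wider peaks 13 genes had one, without Ttn and Myom1. The ratio of observed genes to those from genes of like length ran from 1.58 with a window of 50 kb to 3.85 with wider peaks. Of the distances of 27 named genes, 11 moved with wider peaks and 11 with peaks under 50% soft-masked, and 0 when peaks within 1 kb were merged. Myl1 went from 638 to 1160 and 3255 kb, Xirp1 from 33.1 to 243 and 887 kb, and Smpx from 325 to 1299 and 404 kb. Fhl2 went from 292 to 1033 kb with wider peaks, and Myom2 from 8.56 to 45.8 kb with the less masked ones. Depth is unknown, and a gene without a peak in this list is not shown to lack HIRA.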
